A study of Mus musculus with 8 samples.

Results

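Chemokines are small secreted proteins that call cells bearing matching receptors into a tissue. The 9 chemokine ligand genes described here were taken by name, 6 of the CC family (Ccl2, Ccl3, Ccl4, Ccl5, Ccl6 and Ccl9) and 3 of the CXC family (Cxcl2, Cxcl10 and Cxcl16), from the 48709 genes of the expression table. Their transcripts hold 24 of the 204362 introns that were listed in all intron tables. The series asks how intron retention changes as mouse monocytes form and work, and it measured polyadenylated RNA by sequencing in 8 libraries. They come from 1 library of MDP, 2 of cMoP, 2 of Ly6Chi monocytes in which Upf2 was knocked out, 2 of control Ly6Chi monocytes and 1 of Ly6Clo monocytes. MDP (monocyte-dendritic cell progenitor) and cMoP (common monocyte progenitor) are successive bone marrow precursors, and the monocytes that follow are told apart by high (Ly6Chi) or low (Ly6Clo) Ly6C on their surface. The genotype tags call MDP, cMoP, control Ly6Chi and Ly6Clo WT, while the descriptions of cMoP and control Ly6Chi read FL_FL, a usual mark of a floxed allele, and the knockout is tagged LyC6hi_KO with Upf2 knocked out. All control cells are labelled untreated. The source names and growth notes give primary bone marrow cells and the cell type tag a monocytic cell line. The Cre driver, the ages of the mice and any pooling are not given in the sources used here.

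Chemokine genes are under tight control in monocytes. Signals through NF-kB switch many of them on, interferon switches on Cxcl10, and AU-rich elements in the 3′ end of the message, bound by proteins such as Zfp36, shorten the life of several of the transcripts. Ccl2 calls Ccr2-bearing monocytes out of the bone marrow, and Ccl3, Ccl4 and Ccl5 call monocytes and T cells to inflamed tissue. Ccl3 and Ccl5 act through Ccr1, as do Ccl6 and Ccl9 in the mouse. Cxcl2 calls neutrophils through Cxcr2, Cxcl10 calls activated T cells through Cxcr3, and Cxcl16, made as a membrane-bound protein that can be shed, binds Cxcr6.

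Expression was given as TPM, a measure of transcript abundance with the same sum in every library, which is scaled for transcript length and so allows levels of different genes to be set side by side. Spliced reads in the intron tables totalled 34353668 to 44104702 per library. Among Ly6Chi control and knockout libraries the Upf2 message stood at 20.4 and 22.5 TPM in the knockout, against 20.2 and 18.2 TPM in the control. Reads joining exons 2 and 3 of Upf2, over the intron at chr2:5957851-5960932 (mm10), numbered 10 and 13 in the knockout, against 41 and 45 in the control; this junction was chosen after the data were seen. The marker lists of cMoP (30800 and 28100 TPM in cMoP), Ly6Chi (10100 and 9880 TPM in control Ly6Chi) and Ly6Clo (8100 TPM in Ly6Clo) each had their highest sum in their own group. The MDP list of 5 genes did not: it summed to 914 TPM in MDP, 433 and 245 TPM in cMoP, 817 and 784 TPM in control Ly6Chi and 2250 TPM in Ly6Clo. Neutrophil markers summed to 1670 TPM in MDP, 570 and 540 TPM in cMoP, 7310 and 6090 TPM in knockout cells, 4290 and 4300 TPM in control Ly6Chi cells and 5510 TPM in Ly6Clo, with none of the 12 genes at 0. The lean of reads to the 3′ end of transcripts, as a median log2 ratio over 4721 genes, came to 0.108 for MDP, 0.314 and 0.577 in cMoP, 0.524 and 0.314 in knockout cells, 0.0859 and 0.144 in their controls and 0.108 in Ly6Clo. In bulk RNA, fewer cells of a type and less RNA per cell cannot be told apart. No label states that the libraries of 1 group stem from different mice, and p-values thus rest on the spread among these libraries, which may be a technical one.

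In control Ly6Chi monocytes the ligands fell into an abundant pair and a tail. Mean levels were 892 ± 60.4 TPM for Ccl9 and 891 ± 71.4 TPM for Ccl6 (SD, n = 2 each), which did not differ beyond their spread. Ccl3 followed at 105 ± 53.6 TPM, Ccl2 at 46.2 ± 34.9 TPM, Cxcl10 at 23.7 ± 8.11 TPM and Ccl4 at 14.4 ± 14.1 TPM. The libraries of Ccl3 and Ccl2, of Ccl2 and Cxcl10, of Cxcl10 and Ccl4, and of Ccl4 and Cxcl2 overlapped, so these neighbours were not apart. Cxcl2 at 4.54 ± 0.0354 TPM, Ccl5 at 2.20 ± 1.49 TPM and Cxcl16 at 2.07 ± 0.431 TPM came last, and the libraries of Ccl5 and Cxcl16 overlapped.

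Ccl6 was the ligand with the largest step from cMoP to Ly6Chi on the log2(TPM + 1) scale. It is a CC chemokine of rodents that macrophages make in quantity. Its level was 10.05 TPM in MDP, 12.1 and 4.80 TPM in cMoP, 941 and 840 TPM in control Ly6Chi and 975 TPM in Ly6Clo. All Ly6Chi and Ly6Clo libraries stood far above all progenitor libraries, and Ly6Clo lay just above both Ly6Chi libraries. Between Ly6Chi and cMoP the mean rose 106-fold, or 6.68 ± 0.36 on the log2(TPM + 1) scale (SE; limma adjusted p = 0.000191, all adjusted p-values over the 13126 genes tested). On spliced reads in edgeR the log2 difference between Ly6Chi and cMoP was 6.63. That of Cxcl16 was larger there, at 8.71, with 0 spliced reads in both cMoP libraries. Between Ly6Clo and Ly6Chi the log2 difference of Ccl6 was 0.13 ± 0.44 (limma adjusted p = 0.881).

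Ccl9, its neighbour on chromosome 11, started from a higher base. Ccl9 is a CC chemokine of rodents known for calling osteoclast precursors and dendritic cells. It stood at 161 TPM in MDP, 181 and 80.2 TPM in cMoP, 935 and 849 TPM in control Ly6Chi and 443 TPM in Ly6Clo. The Ly6Chi libraries lay above all others, Ly6Clo lay between them and the progenitors, and MDP lay between the cMoP libraries. Ccl9 rose 6.83-fold in Ly6Chi relative to cMoP (log2 2.88 ± 0.36, limma adjusted p = 0.00195). The drop of 1.01 ± 0.44 in Ly6Clo relative to Ly6Chi did not pass (limma adjusted p = 0.204); it passed without cMoP library 1, when 14.5% of all genes fell, and without cMoP library 2, when 14.3% fell. In all, 3 of 15 alternative settings called this drop. Over the 8 libraries Ccl9 was the member most like Ccl6 (Pearson r = 0.952 on the log2 scale, a description over libraries that share their groups).

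The Ccl6 and Ccl9 genes lie on the minus strand at chr11:83587882-83593087 and chr11:83572919-83578636 (mm10), with Ccl5 at chr11:83525778-83530518 and Ccl3 at chr11:83647844-83649355 on the same strand, and Ccl4 at chr11:83662584-83664683 on the plus strand. Ccl2 lies apart at chr11:82035571-82037453 and Cxcl16 at chr11:70453983-70459984. RefSeq promoter windows on GRCm38.p6, from 250 bases before the start of transcription to 50 after it, were at hand for 5 of the 9 genes: Ccl3, Ccl6, Ccl9, Cxcl2 and Cxcl10. The windows of Ccl6 and Ccl9 share a stretch in which 59 of 74 aligned positions (79.7%) are identical. It is shown because it is a feature common to the pair of ligands with the highest levels in Ly6Chi; capitals mark the identical bases. It runs at chr11:83593073-83593146, from base -59 to 15 of the Ccl6 start, and at chr11:83578588-83578654, from base -18 to 49 of the Ccl9 start, minus strand.
Ccl6: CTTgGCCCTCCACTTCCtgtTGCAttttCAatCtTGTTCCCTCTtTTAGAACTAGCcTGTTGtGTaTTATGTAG
Ccl9: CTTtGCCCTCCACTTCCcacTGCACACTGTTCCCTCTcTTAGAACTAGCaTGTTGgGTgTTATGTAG
The stretch lies at another distance from the annotated start in each gene, so that most of it is upstream of the Ccl6 start and downstream of the Ccl9 start. A motif search of the whole windows found AGGAAGT, a letter string of Ets family sites, in Ccl6 at base -48 on the minus strand (9.35% of 32851 RefSeq promoter windows of the same length hold it on either strand). In Ccl9 it found an NF-kB consensus match at -35, TGANTCA at -53 and TATAAA at -92. None of the strings searched was found in the window of Ccl3.

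**Figure D1:**
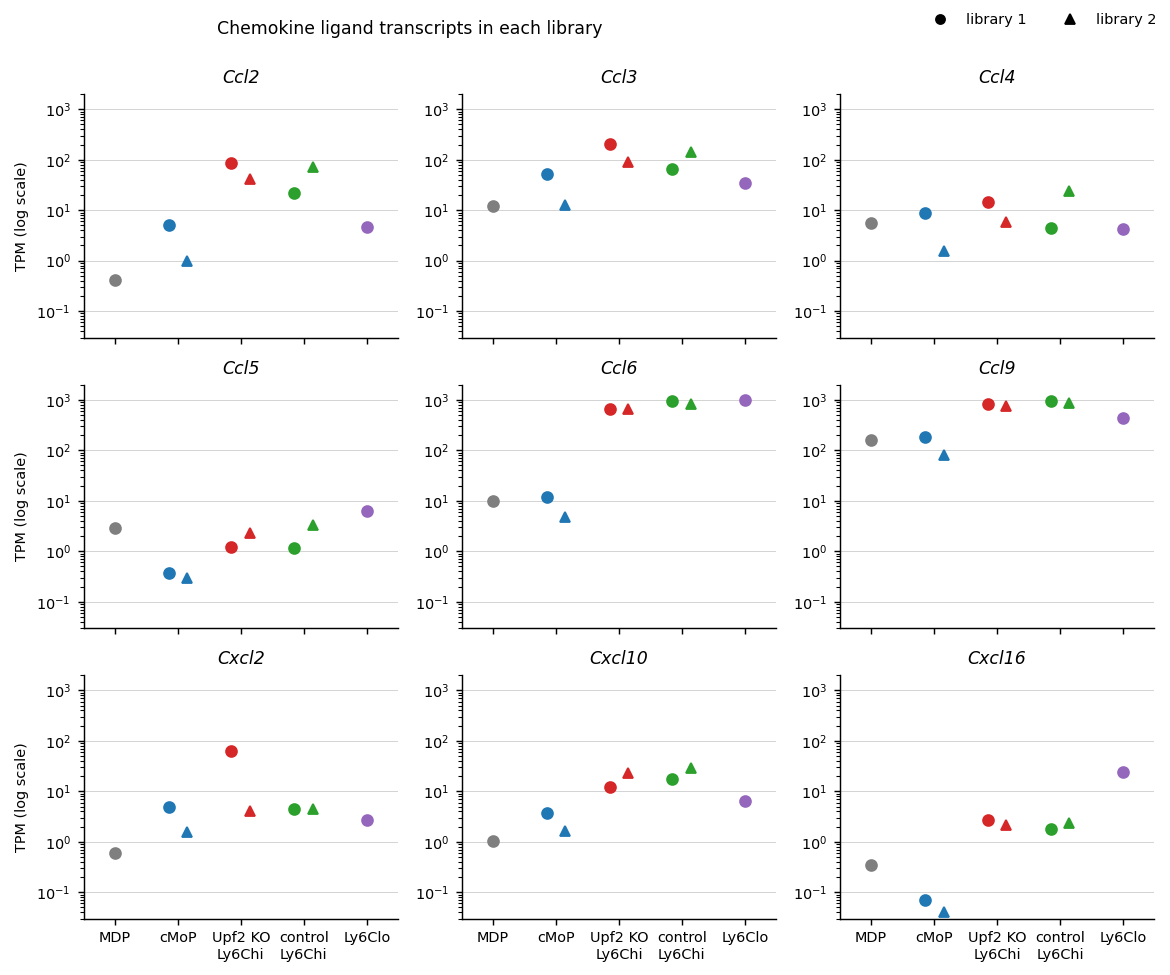
Level of each of the 9 ligands in every library, in TPM on a log axis, by group (MDP, cMoP, Upf2 knockout Ly6Chi, control Ly6Chi and Ly6Clo from left to right; circles are library 1 and triangles library 2). Ccl6 lies between 4.80 and 12.1 TPM in the progenitors and at 646 TPM or above in all monocyte libraries, while Cxcl16 reaches 24.3 TPM in Ly6Clo and 2.75 TPM or below in all other libraries.

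Ccl2, the main ligand of Ccr2, was low in the progenitors. Its level was 0.41 TPM in MDP, 5.03 and 0.98 TPM in cMoP, 21.5 and 70.8 TPM in control Ly6Chi and 4.72 TPM in Ly6Clo. Both control Ly6Chi libraries were above those of MDP, cMoP and Ly6Clo, but they lay 3.3-fold apart. Knockout Ly6Chi, at 84.3 and 41.5 TPM, overlapped the control. Ccl2 rose 15.4-fold in Ly6Chi relative to cMoP (log2 3.54 ± 0.76, limma adjusted p = 0.011). The call was lost without Ly6Chi library 2 (adjusted p = 0.0557), without cMoP library 2 (0.0558) and with no filter on low values (0.0613). In Ly6Clo the level was lower than in Ly6Chi by 2.81 ± 0.93, which did not pass (limma adjusted p = 0.111).

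Ccl3 and Ccl4, the macrophage inflammatory proteins 1 alpha and 1 beta, are neighbours on opposite strands. Ccl3 stood at 12.2 TPM in MDP, 53.0 and 12.6 TPM in cMoP, 67.0 and 143 TPM in control Ly6Chi and 35.1 TPM in Ly6Clo. Apart from knockout Ly6Chi, at 205 and 91.3 TPM, the control Ly6Chi libraries were highest. The level in cMoP library 1 lay close below them, and cMoP library 2 lay with MDP. The log2 difference between Ly6Chi and cMoP was 1.87 ± 0.75 (limma adjusted p = 0.0799). Ccl4 stood at 5.46 TPM in MDP, 8.60 and 1.52 TPM in cMoP, 4.44 and 24.4 TPM in control Ly6Chi and 4.27 TPM in Ly6Clo. The cMoP and Ly6Chi libraries of Ccl4 overlapped, and its log2 difference was 1.26 ± 0.94 (limma adjusted p = 0.292). Neither gene passed in any of the 4 comparisons; between Ly6Chi and cMoP, Ccl3 passed without cMoP library 1 (log2 2.86, limma adjusted p = 0.0221), when 42.0% of all genes rose, and on spliced reads in DESeq2 (log2 1.69, adjusted p = 0.0204), which called 27.4% of all genes higher. Without cMoP library 2 its difference was 0.87 (limma adjusted p = 0.335), and that of Ccl4 was 0.15 without Ly6Chi library 2 (limma adjusted p = 0.912).

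Ccl5, known as RANTES and mostly a product of T cells, was low throughout. It stood at 2.87 TPM in MDP, 0.37 and 0.29 TPM in cMoP, 1.14 and 3.25 TPM in control Ly6Chi and 6.35 TPM in Ly6Clo. The cMoP libraries were lowest and Ly6Clo highest. Ccl5 rose in Ly6Chi relative to cMoP by 1.18 ± 0.37 on the log2 scale (limma adjusted p = 0.0382), but only 3 of 16 alternative settings kept that call. Over the Ccl5 introns cMoP had 8 and 2 spliced reads, and edgeR on spliced reads did not call the rise (log2 2.10, adjusted p = 0.0736). Among 14 markers of T and NK cells only Nkg7 passed the filter on low values, and Nkg7 was lower in Ly6Chi than in cMoP by 5.49 ± 0.19 (log2). At 0 were 8 of the 14 for cMoP library 2 and 1 for cMoP library 1, against 1 for MDP and 0 for Ly6Clo. Control Ly6Chi libraries 1 and 2 had 2 and 4 of them at 0. Markers of the B lineage summed to 1160 TPM for Ly6Clo and 790 TPM for MDP. Their sums were 596 and 772 TPM for the control Ly6Chi libraries and 557 and 303 TPM for the cMoP libraries. The part of T, NK or B cells in the Ccl5 level was not tested.

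Cxcl10, the interferon-induced ligand of Cxcr3, had 1.05 TPM in MDP, 3.74 and 1.65 TPM in cMoP, 17.9 and 29.4 TPM in control Ly6Chi and 6.50 TPM in Ly6Clo. Both control Ly6Chi libraries stood above those of MDP, cMoP and Ly6Clo, and Ly6Clo lay between them and cMoP. Knockout Ly6Chi, at 12.4 and 22.6 TPM, overlapped the control. Cxcl10 rose 8.78-fold in Ly6Chi relative to cMoP (log2 2.76 ± 0.43, limma adjusted p = 0.00379). In Ly6Clo it was lower than in Ly6Chi by 1.68 ± 0.52, which did not pass in limma (adjusted p = 0.0986) but did on spliced reads in edgeR's quasi-likelihood test (adjusted p = 0.0419), which called 6.35% of all genes lower.

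Cxcl2, a neutrophil-calling ligand of Cxcr2, did not pass the test at the step to Ly6Chi. It had 0.60 TPM in MDP, 4.97 and 1.58 TPM in cMoP, 4.56 and 4.51 TPM in control Ly6Chi and 2.71 TPM in Ly6Clo. The cMoP libraries lay on both sides of the Ly6Chi libraries, and the log2 difference between Ly6Chi and cMoP was 0.50 ± 1.14 (limma adjusted p = 0.728). Without cMoP library 2 its sign turned (-0.11). On spliced reads, of which it had 19 and 79 in Ly6Chi, against 14 and 2 in cMoP, the difference was 2.73 in edgeR (adjusted p = 0.207) and 2.77 in DESeq2 (adjusted p = 0.172).

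The promoter windows of the genes Cxcl2 (chr5:90903873-90905938, plus strand) and Cxcl10 (chr5:92346638-92348882, minus strand) are printed because they hold like letters although their genes stood differently across the stages. They cover chr5:90903649-90903948, plus strand, and chr5:92348840-92349139, minus strand (RefSeq, GRCm38.p6). Capitals mark matches of the NF-kB consensus in both and of the core of interferon response elements (GAAA, any 2 bases, GAAA) in Cxcl10.
Cxcl2: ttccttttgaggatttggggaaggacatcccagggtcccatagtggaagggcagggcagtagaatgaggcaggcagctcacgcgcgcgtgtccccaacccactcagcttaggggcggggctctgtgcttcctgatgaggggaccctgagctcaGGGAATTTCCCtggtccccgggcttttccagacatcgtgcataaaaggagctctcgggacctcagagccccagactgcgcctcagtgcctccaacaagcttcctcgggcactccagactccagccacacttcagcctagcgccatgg
Cxcl10: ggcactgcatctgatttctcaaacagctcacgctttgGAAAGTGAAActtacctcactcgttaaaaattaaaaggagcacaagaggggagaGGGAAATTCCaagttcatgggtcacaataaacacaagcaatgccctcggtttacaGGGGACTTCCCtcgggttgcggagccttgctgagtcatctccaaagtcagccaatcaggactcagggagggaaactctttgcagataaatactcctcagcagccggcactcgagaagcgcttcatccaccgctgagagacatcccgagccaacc
Cxcl2 holds the NF-kB consensus at -97 and, overlapping it on the other strand, at -96. Cxcl10 holds it at -159, at -104 and, overlapping, at -103, with the interferon response core at -213 and, in lower case, TGANTCA at -74. Of 32851 RefSeq windows of the same length, 8.46% hold the NF-kB consensus, 3.44% the interferon response core, 7.81% TGANTCA (each on either strand) and 8.32% TATAAA on the sense strand. A match is a string of letters and no measured site.

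Cxcl16 was highest in Ly6Clo monocytes. Its level was 0.34 TPM in MDP, 0.07 and 0.04 TPM in cMoP, 1.76 and 2.37 TPM in control Ly6Chi and 24.3 TPM in Ly6Clo. These groups were fully apart, with cMoP lowest and Ly6Clo highest, while knockout Ly6Chi, at 2.75 and 2.13 TPM, overlapped the control. Cxcl16 rose in Ly6Chi relative to cMoP (log2 1.53 ± 0.20, limma adjusted p = 0.00208), where both cMoP libraries had 0 spliced reads over its introns, against 40 and 64 in Ly6Chi. A count of 0 allows up to 3 reads. Cxcl16 rose again in Ly6Clo, 11.8-fold over Ly6Chi (log2 3.05 ± 0.24, limma adjusted p = 0.00123), and 15 of 15 alternative settings kept this call. Macrophage markers moved the same way: 6 of the 8 tested rose in Ly6Clo, their sum of 10 genes was 1210 TPM in Ly6Clo, against 228 and 233 TPM in Ly6Chi, and the complement gene C1qa stood at 180 TPM in Ly6Clo, against 1.19 and 0.91 TPM in Ly6Chi. Of the dendritic cell markers 3 of 7 tested rose, with a sum of 469 TPM in Ly6Clo, against 119 and 160 TPM in Ly6Chi. Of the B lineage markers 4 of 8 tested rose and 0 fell, with a sum of 1160 TPM in Ly6Clo, against 596 and 772 TPM in Ly6Chi. The part of such cells in the Cxcl16 level was not tested.

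The 3′ untranslated ends differ in AU-rich letters and in length. Cxcl2 holds 11 copies of ATTTA in 734 bases, a number that 0.0438% of 2283 GENCODE M21 ends of like length reach, and 7 copies of the longer TATTTAT (0.0876%). Ccl3 holds 5 copies in 409 bases (1.12% of 1867 ends of like length hold as many), and Ccl4 holds 2 in 302 bases (13.4% of 1720). Ccl6 holds 4 in 943 bases and Ccl9 5 in 2465 bases, numbers that 15.8% and 45.1% of ends of like length reach, while Ccl2 holds 1, Cxcl10 and Cxcl16 hold 2 each, and Ccl5 holds none. Stretches of 30 bases are shown for the AU-rich Cxcl2 and Ccl3 and, for contrast, for the abundant Ccl6 and for Cxcl10; capitals mark ATTTA. They lie at chr5:90905327-90905356 (plus), chr11:83648085-83648114, chr11:83588731-83588760 and chr5:92346949-92346978 (minus), mm10.
Cxcl2: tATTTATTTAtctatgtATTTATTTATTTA
Ccl3: gactcttcacttgaaattttATTTAATTTA
Ccl6: ccttgtttttatagatATTTAaagcATTTA
Cxcl10: ttttatttcagatgtaagactacaaATTTA
In the Cxcl2 stretch the copies overlap in runs, in that of Ccl3 the pair abuts, and in those of Ccl6 and Cxcl10 the copies stand apart or alone.

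By comparison, the step that moved these ligands was that to Ly6Chi. Between Ly6Chi and cMoP, 6 of 9 ligands rose (Ccl2, Ccl5, Ccl6, Ccl9, Cxcl10 and Cxcl16) and 0 fell in limma. Over all 13126 genes 32.3% rose and 23.3% fell, and the median log2 difference was 1.87 over the ligands and 0.19 over all genes. With medians of the libraries set equal the median of all genes was -0.14, the split over all genes turned to 3354 higher (25.6%) and 4462 lower (4235 and 3053 without), and 5 ligands rose; quantile normalization gave 3695 higher (28.2%), 4423 lower and 5 ligands. Neutrophil markers moved with this step (10 of 12 rose; 4290 and 4300 TPM in Ly6Chi, against 570 and 540 TPM in cMoP), as did macrophage markers (6 of 8 tested rose; 228 and 233 TPM, against 20.0 and 8.50 TPM, Spic at 0 in cMoP library 2). The 3′ lean was smaller in Ly6Chi than in cMoP. The part of either in the ligand levels was not tested.

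Between cMoP and MDP, 0 of 9 ligands passed in limma, against a background of 3.87% of all genes in either direction. At an unadjusted p under 0.05 there was 1 ligand, Ccl5, lower in cMoP by 1.54 ± 0.45. On spliced reads, edgeR called 0 ligands and DESeq2 called 1, Ccl2, higher by 4.86 (adjusted p = 0.0474), among 5.41% of all genes that it called higher. MDP is a lone library, taken to vary like the groups with 2, and without cMoP library 1 the calls were 2, Ccl6 and Ccl9, both lower in cMoP, in a fit in which 4917 of 13126 genes passed and 29.4% fell.

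Between Ly6Clo and Ly6Chi, 1 of 9 ligands rose, Cxcl16, and 0 fell. Over all genes 5.9% rose and 7.12% fell. The median log2 difference of the ligands was -1.01, against 0.04 over all genes. Ccl2, Ccl3, Ccl4, Ccl9, Cxcl2 and Cxcl10 lay below both Ly6Chi libraries in Ly6Clo, but none of them passed in limma. The share of all genes that lay below both was not counted, so this order was not set against a background. Ccl5 stood above both Ly6Chi libraries in Ly6Clo (log2 1.29 ± 0.45, limma adjusted p = 0.131). DESeq2 on spliced reads added Ccl2 and Cxcl10 to the calls, both lower in Ly6Clo, among 8.44% of all genes that it called lower. Ly6Clo too is a lone library, so its own spread is unknown.

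**Figure D2:**
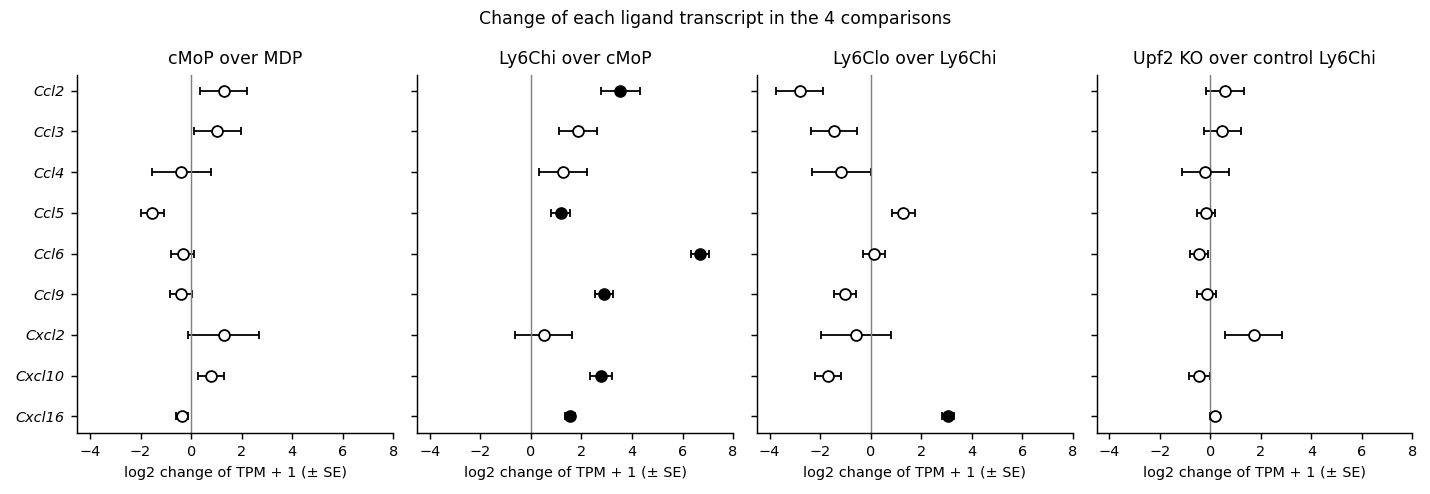
Log2 difference of each ligand with its SE in the 4 comparisons (limma on log2(TPM + 1); a positive value means higher in the group named first, and filled points passed at an adjusted p under 0.05). The filled points are 6 ligands between Ly6Chi and cMoP and Cxcl16 between Ly6Clo and Ly6Chi.

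Loss of Upf2, a core factor of nonsense-mediated decay, was not followed by a ligand that passed the test. In the knockout against control Ly6Chi, 0 of 9 ligands passed in limma, 0 had an unadjusted p under 0.05, and 0 passed on spliced reads in edgeR or DESeq2. Over all genes 0.00762%, that is 1 gene, passed in limma, 1910 had an unadjusted p under 0.05, and DESeq2 called 96. Ccl6 had 665 and 646 TPM in the knockout, against 941 and 840 TPM in the control. The groups did not overlap, yet the log2 difference was -0.44 ± 0.36 (limma adjusted p = 0.542). Ccl9 had 839 and 765 TPM in the knockout, against 935 and 849 TPM in the control, also without overlap (log2 -0.15, limma adjusted p = 0.837). The other ligands overlapped. The share of all genes without overlap between these groups was not counted, so no effect is read from it. Markers of neutrophils summed to 7310 and 6090 TPM in the knockout, against 4290 and 4300 TPM in the control, with 0 of 12 past the test, and their part in these levels was not tested.

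Several inflammatory ligands differed between the knockout libraries. Cxcl2 had 63.3 and 4.11 TPM in the knockout, against 4.56 and 4.51 TPM in the control, so that knockout library 1 alone was high. Its log2 difference was 1.71 ± 1.14 (limma adjusted p = 0.463), and -0.12 without knockout library 1. Ccl2 had 84.3 and 41.5 TPM in the knockout, against 21.5 and 70.8 TPM in the control (log2 0.58 ± 0.76, limma adjusted p = 0.695), and Ccl3 had 205 and 91.3 TPM in the knockout, against 67.0 and 143 TPM in the control (log2 0.48 ± 0.75, limma adjusted p = 0.746). In both the groups overlapped, and both signs turned without control library 1 (-0.25 for Ccl2 and -0.06 for Ccl3). Ccl4 had 14.5 and 5.80 TPM in the knockout, against 4.44 and 24.4 TPM in the control. Cxcl10 had 12.4 and 22.6 TPM in the knockout, against 17.9 and 29.4 TPM in the control. For Ccl5 the values were 1.21 and 2.26 TPM in the knockout, against 1.14 and 3.25 TPM in the control, and for Cxcl16 2.75 and 2.13 TPM in the knockout, against 1.76 and 2.37 TPM in the control. The groups overlapped in each of these 4 genes.

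Intron retention was read from the numbers of boundary reads, which cross from an exon into the intron at either end, and of spliced reads, which join the exons. Their boundary share is the boundary reads as a percentage of both; it compares libraries and is not the percentage of unspliced molecules, since an unspliced molecule can be counted at both ends. Reads from a retained intron and from a transcript not yet spliced cannot be told apart. Wilson 95% intervals in brackets cover counting error only. Of the 24 introns 23 belong to the principal transcripts, all within the coding sequence, and introns 3 of Cxcl2 and Cxcl10 are marked as overlapping a known exon. Over all genes with at least 20 reads the median share came to 7.38% for MDP, 6.95% and 4.35% in cMoP, 6.26% and 6.42% for knockout cells, 7.23% and 7.06% for control Ly6Chi cells and 8.31% in Ly6Clo.

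Ccl2, Ccl3, Ccl4 and Cxcl2 stood above those medians and the abundant pair below them, where they had the reads. Ccl9 had shares of 1.39% to 2.39% over the 8 libraries, and Ccl6 of 5.88% in MDP and less in all the others. Ccl3 had 65.4% in MDP (176 boundary and 93 spliced reads), 43.0% and 52.8% in cMoP, 19.7% and 28.6% in knockout cells, 37.9% and 18.6% in their controls and 53.8% in Ly6Clo. In each library that share exceeded those of 84.3% or more of all genes. Ccl4 had 58.6% in MDP, 47.9% and 57.4% in cMoP, 14.1% and 22.4% in knockout cells, 36.0% and 10.0% in control Ly6Chi and 38.2% in Ly6Clo, and the 10.0% of control library 2 exceeded the share of only 63.4% of all genes. In both genes the progenitors and Ly6Clo were high, and control Ly6Chi library 2 and knockout library 1 were low. Control Ly6Chi library 1 lay between. In Ccl4 its 36.0% [26.8 to 46.3] was not apart from the 38.2% [28.8 to 48.6] of Ly6Clo. Ccl2 had 48.0% and 47.6% in cMoP, 20.6% and 27.7% in knockout cells, 45.7% [40.1 to 51.3] and 17.2% [15.1 to 19.5] in control Ly6Chi and 56.6% in Ly6Clo, with 8 boundary reads and 1 spliced read in MDP.

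Cxcl2 and Cxcl10 had their highest shares in cMoP. Cxcl2 had 88.7% [81.9 to 93.2] and 95.8% [86.0 to 98.8] in cMoP, from 110 boundary against 14 spliced reads and 46 against 2. The gene has 4 exons, but only its introns 2 and 3 were listed in all intron tables, and both are counted here. Its share was 26.8% and 58.8% in knockout cells, 74.0% and 29.5% in control Ly6Chi and 56.7% in Ly6Clo. Its introns 2 and 3 were alike in cMoP library 1, with deposited retention ratios of 0.875 at chr5:90904240-90904356 and 0.738 at chr5:90904441-90905188. Cxcl10 had 66.9% [58.4 to 74.5] and 45.5% [33.0 to 58.5] in cMoP, 7.69% and 5.67% in knockout cells, 9.01% [6.38 to 12.6] and 4.92% [3.44 to 6.97] in control Ly6Chi and 8.41% in Ly6Clo. Its cMoP libraries stood above all monocyte libraries, with no overlap of the intervals, and the 4.92% of control library 2 lay below the median of all genes (35.4% of them were lower). The reads crossed both ends of the Cxcl10 introns: intron 1 at chr5:92348216-92348753 had 20 and 21 boundary reads at its ends and 12 spliced reads in cMoP library 1, against 8 and 9 boundary and 225 spliced reads in control Ly6Chi library 2. Cxcl16 had a share of 5.18% in Ly6Clo from 34 boundary and 623 spliced reads, and Ccl5 had 1 boundary read in all libraries together.

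Only 3 of the 9 genes entered the retention test, Ccl3, Ccl4 and Ccl9, because all introns of Ccl2, Ccl6, Cxcl10 and Cxcl16 carry an antisense mark in the knockout tables, and Cxcl2 and Ccl5 had too few reads. In edgeR's quasi-likelihood test 0 of the 3 passed in any comparison. Over the 8112 genes tested 0.0% passed between cMoP and MDP, 0.0123% between Ly6Chi and cMoP, 0.0123% between Ly6Clo and Ly6Chi and 0.0247% between the knockout and control. Between Ly6Chi and cMoP boundary reads relative to spliced reads differed by -1.28 (log2) in Ccl3 (unadjusted p = 0.0253, edgeR adjusted p = 0.303) and by -2.23 in Ccl4 (unadjusted p = 0.0113, edgeR adjusted p = 0.302). DESeq2 called 0 of the 3 as well, and without cMoP library 1 edgeR called both (-1.62 in Ccl3 and -2.67 in Ccl4, adjusted p = 0.0447 and 0.0374), in a fit in which 2946 of 8112 genes passed, 2860 of them higher and 86 (1.06%) lower. Without Ly6Chi library 2 the differences were -0.58 in Ccl3 (edgeR adjusted p = 0.799) and -0.92 in Ccl4 (edgeR adjusted p = 0.759). The calls depended on the scaling: with boundary and spliced reads scaled apart by TMM, Ccl3 (-1.63, edgeR adjusted p = 0.031) and Ccl4 (-2.58, edgeR adjusted p = 0.0264) fell in Ly6Chi, beside 0.962% of all genes that fell. The median over all genes was -0.08 with that scaling and 0.31 without it.

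With marked introns kept and 20 reads asked for in 4 libraries, a setting chosen after the data were seen, 8 ligand genes entered the test. Cxcl10 then fell by 4.32 on the log2 scale in Ly6Chi relative to cMoP (edgeR adjusted p = 0.0414), the only one of the 8, while 0.0481% of all genes fell. With TMM scaling as well, 3 fell: Cxcl10 (-4.62, edgeR adjusted p = 2.34e-05), Cxcl2 (-3.60, adjusted p = 0.0422) and Ccl4 (-2.53, adjusted p = 0.0396), while Ccl3 missed (adjusted p = 0.0511) and 0.827% of all genes fell. The marks bear on the Cxcl10 value: its introns overlap an antisense gene per the knockout tables, and since the counting program's use of strand is not given in the sources used here, reads of the antisense partner cannot be told apart. Under the settings tried, all retention calls of ligands were between Ly6Chi and cMoP.

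**Figure D3:**
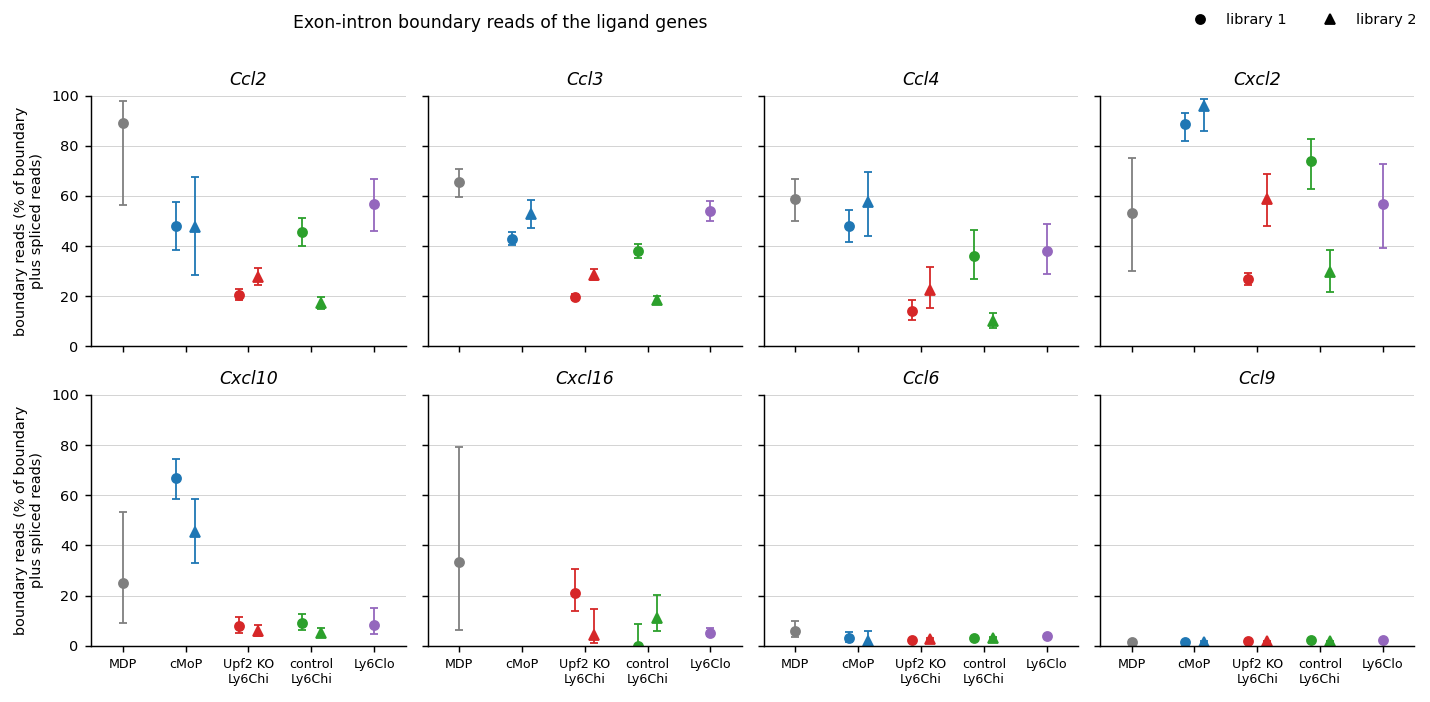
Boundary share (boundary reads as a percentage of boundary plus spliced reads) of the ligands in every library by group, with Wilson 95% intervals; circles are library 1 and triangles library 2. Cxcl2 and Cxcl10 reach 95.8% and 66.9% in cMoP, and Ccl6 and Ccl9 stay at 5.88% or below in all libraries.

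Between the control Ly6Chi libraries the inflammatory ligands Ccl2, Ccl3, Ccl4 and Cxcl2 differed more in spliced than in boundary reads. In control Ly6Chi library 2 over library 1, with each count set per total spliced reads, spliced reads differed 5.13-fold in Ccl2, 2.41-fold in Ccl3, 5.78-fold in Ccl4 and 3.8-fold in Cxcl2. Boundary reads of the same genes differed 1.27-fold, 0.9-fold, 1.14-fold and 0.559-fold. Ccl6 and Ccl9 had ratios of 0.877 and 0.961 for spliced reads. So these 4 ligands had more spliced reads in library 2 at about the same or fewer boundary reads, and the abundant pair had about the same. Cxcl10 did likewise, at 1.69-fold for spliced and 0.884-fold for boundary reads. Cxcl2 rests on 79 and 19 spliced reads in libraries 2 and 1, and its TPM was even (4.51 and 4.56). The share of all genes with this pattern was not counted. Over all 13126 genes only 1.9% differed by 1 or more on the log2(TPM + 1) scale between these libraries, and Ccl2 at 1.67, Ccl3 at 1.08 and Ccl4 at 2.22 were among them. Erythroid markers also differed between them, with a sum of 188 TPM in library 2 and 35.2 TPM in library 1, and their part was not tested.

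The knockout libraries differed in the same genes. Over all 13126 genes 1.95% differed by 1 or more on the log2(TPM + 1) scale between the knockout libraries. Ccl2 at 1.01, Ccl3 at 1.16, Ccl4 at 1.19 and Cxcl2 at 3.65 were among them. In all pairs compared, the library with more Ccl2, Ccl3 and Ccl4 was set on top, so their spliced ratios above 1 follow from that. In knockout library 1 over library 2 spliced reads differed 2.03-fold in Ccl2, 2.48-fold in Ccl3, 3.32-fold in Ccl4 and 29.6-fold in Cxcl2, and boundary reads 1.37-fold, 1.52-fold, 1.87-fold and 7.6-fold. Cxcl10 ran the other way, at 0.608 for spliced and 0.843 for boundary reads. In cMoP library 1 over library 2 both kinds of read were higher, but not always alike. Ccl2 stood at 4.73-fold spliced and 4.8-fold boundary, Ccl3 at 5.01-fold and 3.38-fold and Ccl4 at 5.41-fold and 3.69-fold. Cxcl2 stood at 7.14-fold spliced, from 14 and 2 reads, and 2.44-fold boundary. Cxcl10 went the other way, at 1.43-fold spliced and 3.47-fold boundary. These libraries also differed in 3′ lean, 0.314 in library 1 and 0.577 in library 2.

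**Figure D4:**
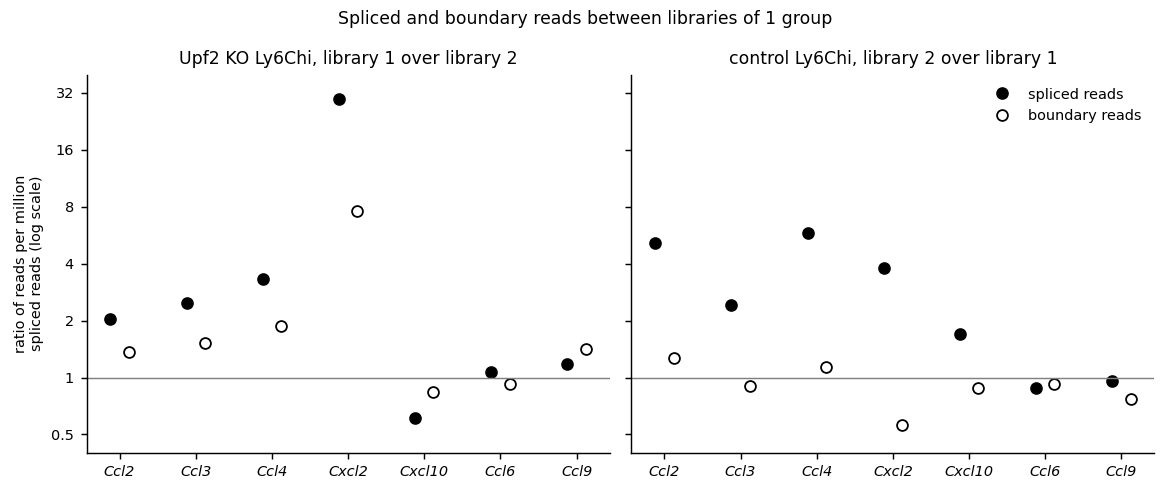
Ratio of reads between the libraries of a group, per total spliced reads, on a log axis for 7 ligands, knockout library 1 over 2 on the left and control Ly6Chi library 2 over 1 on the right (filled points are spliced reads, open points boundary reads). In control Ly6Chi spliced reads of Ccl2 and Ccl4 stand 5.13-fold and 5.78-fold apart and boundary reads 1.27-fold and 1.14-fold.

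Receptors of the ligands also rose at the step to Ly6Chi in limma, at which 32.3% of all genes rose. Ccr1, the receptor of Ccl3, Ccl5, Ccl6 and Ccl9, had 51.5 and 45.6 TPM in Ly6Chi, against 1.66 and 0.74 TPM in cMoP (log2 4.52 ± 0.24, adjusted p = 0.000179). Ccr2, the receptor of Ccl2 that lets monocytes leave the marrow, had 1401 and 1357 TPM in Ly6Chi, against 129 and 74.1 TPM in cMoP (log2 3.81 ± 0.28, adjusted p = 0.000404). Cxcr3, the receptor of Cxcl10, rose as well (1.62 ± 0.22, adjusted p = 0.00252). In Ly6Clo relative to Ly6Chi, Ccr1 fell by 2.45 ± 0.29 (adjusted p = 0.00494), at 8.08 TPM in Ly6Clo, while Cxcr2, the receptor of Cxcl2, rose by 1.79 ± 0.33 (adjusted p = 0.023). Cxcr6, the receptor of Cxcl16, stayed at 0.39 TPM or below in all libraries. Between the knockout and control none of Ccr1, Ccr2, Cxcr2 and Cxcr3 passed in limma; Ccr2 had 656 and 883 TPM in the knockout, against 1401 and 1357 TPM in the control.

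Other chemokine ligands were scarce. Of 29 further ligand genes listed, 4 passed the filter on low values and 0 passed the limma test in any of the 4 comparisons. Ccl25 was even across the groups, at 4.55 to 6.29 TPM, and Ccl27a reached 11.6 TPM in MDP. Pf4, the platelet factor of megakaryocytes, stood at 15.4 TPM in Ly6Clo and at 0.65 TPM or below elsewhere, too few libraries to be tested.

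Genes of the pathways that are known to act on these ligands moved mostly at the step to Ly6Chi, as did genes at large. Of 13126 genes 7288 passed at that step in limma. Between cMoP and MDP 508 passed, between Ly6Clo and Ly6Chi 1708, and between the knockout and control 1. Of 17 NF-kB pathway genes 13 rose and 0 fell between Ly6Chi and cMoP, led by Relb (log2 3.39 ± 0.18), a subunit of NF-kB, Nfkbiz (3.34 ± 0.61), an inducible cofactor, and Il1b (2.96 ± 0.78), a cytokine target. Of 15 interferon and STAT genes 13 rose and 0 fell, led by the regulator Irf7 (6.20 ± 0.18, at 136 and 175 TPM in Ly6Chi, against 1.31 and 0.93 TPM in cMoP) and by Ifit3 (5.49 ± 0.21) and Isg15 (3.54 ± 0.27), which interferon induces. Of 11 genes of AU-rich decay 5 rose and 2 fell, and Zfp36l1 (3.18 ± 0.23), Zfp36 (2.70 ± 0.59) and the nuclease gene Zc3h12a (1.83 ± 0.36), which shorten the life of chemokine and cytokine messages, were among those that rose. Zfp36, the tristetraprolin gene, had 613 and 1083 TPM in Ly6Chi, against 235 and 65.8 TPM in cMoP. These counts stand beside the 32.3% of all genes that rose and the 23.3% that fell.

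In the other comparisons fewer of them passed, as fewer of all genes did. Between Ly6Clo and Ly6Chi 1 NF-kB gene rose (Nfkb2, 0.99 ± 0.18), of the interferon list Ifngr1 (1.28 ± 0.27) and Irf3 (0.70 ± 0.13) rose and Ifit1 fell by 1.32 ± 0.28, and of the decay list Zfp36l1 rose by 3.62 ± 0.28, to 141 TPM in Ly6Clo, and Hnrnpd fell by 0.98 ± 0.17. Between cMoP and MDP Irf7 fell by 1.24 ± 0.22 and Zfp36l1 by 2.36 ± 0.28. Between the knockout and control 0 genes of these lists passed in limma.

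Proteases that can trim or release chemokines moved in both directions. Between Ly6Chi and cMoP 4 of 8 tested rose and 3 fell: the granule proteases Ctsg (-5.04 ± 0.14) and Elane (-4.97 ± 0.17) fell and the collagenase Mmp8 (4.96 ± 0.36) rose. Between cMoP and MDP 3 rose and 1 fell, with Elane higher by 4.57 ± 0.21 and Prtn3 by 1.97 ± 0.16, and Mmp9 lower by 2.63 ± 0.46. In Ly6Clo relative to Ly6Chi 1 rose, the gelatinase Mmp9 (4.04 ± 0.46), and 4 fell, Prtn3 (-2.45 ± 0.16) and Mmp8 (-2.35 ± 0.44) among them. Over all genes 32.3% rose and 23.3% fell between Ly6Chi and cMoP, and 3.87% passed between cMoP and MDP. Between Ly6Clo and Ly6Chi 5.9% of all genes rose and 7.12% fell. Adam10, a protease that sheds membrane-bound Cxcl16, was present in all groups, at 70.8 TPM in Ly6Clo and 94.0 and 75.6 TPM in control Ly6Chi.

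The genes most like each ligand over the 8 libraries were sought by Pearson's r on log2(TPM + 1) among 4133 tested genes with a range of at least 2, and are given as a description, since libraries of a group are alike. Ccl6 was followed by Shisa5 and Osbpl9 (r = 0.999 each) and Ccl9 by Parvb (0.992) and the lysosomal gene Grn (0.991). Ccl3 was followed by Fos (0.974) and Gm26083 (0.942), Ccl4 by Csrnp1 (0.954) and Ptgs2 (0.933), Ccl5 by Ly6a (0.958) and Iglc2 (0.951) and Cxcl2 by Maff (0.929) and Ciart (0.865). Fos had 1103 and 1818 TPM in control Ly6Chi libraries 1 and 2, against 626 and 129 TPM in cMoP libraries 1 and 2, the same order as Ccl3. Ccl2 was closest to Cd200r4 (0.975) and Cstb (0.972) and, among the ligands, to Ccl3 (0.974). Cxcl10 was closest to Mnda (0.991), an interferon-inducible gene in the human, and Rusc2 (0.99). Cxcl16 was closest to Gm15832 (0.988) and Leng9 (0.996), the second of which stood at 20.3 TPM in Ly6Clo and 5.47 TPM or below elsewhere.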

How the data were processed

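Polyadenylated RNA of integrity number over 7 was sequenced from strand-specific libraries as read pairs of 100 bp, per the labels' protocols. FastQC, Trimmomatic, STAR 2.5.2a and RSEM, and the build mm10 beside a human build, are named per the submitters' processing notes; no source used here gives their settings. The table of expression values deposited by the authors is named for FPKM, but its columns sum to 1000000 (999999 in 1 library), so its values were treated as TPM scaled by the authors. The deposited intron tables give whole-number counts of boundary and spliced reads, a coverage signal over the intron and a fraction, the authors' retention ratio. The knockout tables list 204370 introns and the others 205984, with different marks.

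Expression was compared with limma 3.58.1 (R 4.3.3) on log2(TPM + 1) over 13126 genes, those that reached 1 TPM in 2 libraries or more, which all 9 ligands did. The 8 libraries of 5 groups shared 1 spread with 3 residual degrees of freedom; a fold is the ratio of the means in TPM unless called log2, and the log2(TPM + 1) scale understates the change of low genes. Retention was compared with edgeR 4.0.16 (quasi-likelihood) on boundary relative to spliced counts, summed per gene over introns unmarked in both lists, with at least 20 reads in every library (8112 genes). Benjamini-Hochberg adjusted p-values under 0.05 passed. DESeq2 1.42.0, other scalings, filters and each replicate left out were alternatives. Both tests were also run on simulated data with a fixed spread between libraries, so those runs do not give their power or error rate here.

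All members are named; of the other lists at most 3 called genes per comparison, and for each ligand the 2 genes most like it. A few genes set beside a result (Adam10, Ccr2 in the knockout, Pf4, C1qa) were chosen after their values were seen. Ligands and lists were chosen with earlier results of these data known. 1 gene of the receptor list is not reported here.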

Additional observations from a re-analysis of the deposited data

How the results depend on the processing

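The number of ligands that passed depended on the processing in some comparisons. It was 0 under all settings in the knockout comparison, for expression and for retention, and for retention between cMoP and MDP and between Ly6Clo and Ly6Chi. For expression between Ly6Chi and cMoP 4 to 6 of 9 ligands passed under all settings, 4 to 6 also over the fits with 1 replicate left out; Ccl6, Ccl9, Cxcl10 and Cxcl16 passed in 16 of 16 alternatives, Ccl2 in 13 and Ccl5 in 3 (adjusted p 0.0216 to 0.154). Between cMoP and MDP the count was 1 in DESeq2 on spliced reads and 0 to 2 with 1 replicate left out. Between Ly6Clo and Ly6Chi it was 2 with only these groups fitted, 2 with quantile normalization, 3 in DESeq2, 2 in edgeR on spliced reads, 2 there with no filter, and 1 to 2 with 1 replicate left out (2 without either cMoP library, which adds Ccl9). For retention between Ly6Chi and cMoP it was 2 with TMM scaling of boundary and spliced reads apart, 1 with marked introns kept and 4 libraries at the read minimum, 3 with TMM as well, and 0 to 2 with 1 replicate left out (2 without cMoP library 1, when 2946 genes passed). The cause was not tested.

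Signs turned in some values that did not pass. Between cMoP and MDP, Ccl6 (-0.34) turned to 0.04 with equal medians, 0.17 with quantile normalization, 0.03 in DESeq2, 0.02 in edgeR on spliced reads and 0.02 there with no filter, and ranged over -0.93 (without cMoP library 1, past the test) to 0.24 (without cMoP library 2) with 1 replicate left out; Ccl9 (-0.41) ranged over -0.99 (without cMoP library 1, past the test) to 0.17 (without cMoP library 2). Over the fits with 1 replicate left out, Cxcl2 between Ly6Chi and cMoP ranged over -0.11 (without cMoP library 2) to 1.10 on the log2 scale. Between the knockout and control the range was -0.25 (without control library 1) to 1.42 for Ccl2, -0.10 (without knockout library 1; -0.06 without control library 1) to 1.06 for Ccl3 and -0.12 (without knockout library 1) to 3.54 for Cxcl2; Ccl9 (-0.15) turned to 0.05 with equal medians, 0.14 in DESeq2, 0.11 in edgeR on spliced reads and 0.12 there with no filter. Over all ligands 11 of 36 expression values and 4 of 12 retention values changed sign under some setting. Counts over all genes moved too: between cMoP and MDP 508 passed, against 0 with only these groups fitted, 2348 with no filter and 4917 without cMoP library 1; between Ly6Clo and Ly6Chi 1708, against 3590 with no filter and 587 without Ly6Chi library 1.

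Same-numbered libraries showed no strong shift in common across genes. Their deviations from the group means correlated at 0.063 between cMoP and Ly6Chi, -0.136 between cMoP and the knockout and -0.130 between Ly6Chi and the knockout. These values cannot tell whether same-numbered libraries share a mouse or a batch. With the replicate block 6 ligands passed between Ly6Chi and cMoP and 0 in the knockout comparison, as without it, and 0 of 3 in retention; over all genes 6331 passed between Ly6Chi and cMoP, against 7288 without the block. With the knockout numbers crossed, a setting chosen after the data were seen, 0 genes passed for expression and 3 genes, 0 of them ligands, for retention.

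Depth limits Ccl5, Cxcl16 and, in MDP and cMoP, Ccl2, Cxcl2 and Cxcl10, whose introns hold few reads there, and the groups of 1 library give no spread of their own.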
